A study of Mus musculus with 9 samples.

Results

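Mouse group 2 of this series held 4 of its 9 libraries of induced regulatory T cells, and these 4 were described here by how strongly they expressed Mki67, which encodes the Ki-67 protein of cycling cells. They were split by a measured value: the 2 libraries with Mki67 above 1000 CPM (a gene's count over the library's total count, times 1000000) against the 2 below. WT replicate 2 and Glut1Tg replicate 1, with 1632 and 1619 CPM, made up the Mki67-high pair, and WT replicates 4 and 5, with 415.5 and 869.7 CPM, made up the Mki67-low pair. The members nearest to the threshold therefore stood at 1619 CPM inside and 869.7 CPM outside it. Throughout, the 2 values of a pair are given in that order. Cell division itself was not measured. Because the split was chosen on these same libraries, every difference between the pairs is a description, and none was tested.

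All 9 libraries came from T cells of C57BL/6J mice, profiled by mRNA sequencing with stranded kits and 75 bp paired-end reads. WT libraries were from wild-type mice and Glut1Tg libraries from mice with a transgene for the glucose transporter Glut1. The promoter of the transgene, the mice's age, the way the cells were induced and what sets the mouse groups apart are not stated in these sources. In mouse group 2 the Mki67-high pair held 1 WT and 1 Glut1Tg library and the Mki67-low pair 2 WT libraries. Mouse group 1, used for comparison, held 2 WT libraries (replicates 1 and 3) and 3 Glut1Tg libraries (replicates 2, 3 and 4). Whether each library had its own animal or culture is not said in the labels, so the spread between libraries may be technical, and so may what the p-values below measure.

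A T cell that leaves quiescence takes up more nutrients, raises glycolysis and lipid and nucleotide synthesis, and then passes the restriction point, where cyclin-dependent kinases release E2F transcription factors from retinoblastoma proteins. E2F factors switch on the genes of DNA replication, while a later wave of mitotic genes carries CHR and CCAAT elements in its promoters, which are read by the DREAM complex, B-Myb, FoxM1 and NF-Y. In T cells this is coupled to interleukin-2, whose high-affinity receptor contains the alpha chain CD25 encoded by Il2ra. Regulatory T cells, defined by the transcription factor Foxp3, carry CD25 at high levels.

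Promoters are printed for 3 genes that were higher in the Mki67-high pair. Only windows that held a motif searched for were eligible, so the presence of a match in them is no result. Ncapg, a condensin subunit needed to compact chromosomes, was the mitotic gene with the widest gap between the pairs. Cdc6, which loads the replicative helicase on origins, was the corresponding replication gene. Il2ra is the receptor gene described below. The 250 bases before the start site, plus strand, are from RefSeq on GRCm38.p6, at chr5:45669675-45669924 for Ncapg, chr11:98907901-98908150 for Cdc6 and chr2:11642542-11642791 for Il2ra. Capitals mark, in Ncapg, the CHR letters TTTGAA and the CCAAT box read on the other strand (ATTGG). In Cdc6 they mark an E2F match (GCGGGAA) and in Il2ra only the letters TTTGAA, which stood in 20.2% of all genes with a window.
Ncapg: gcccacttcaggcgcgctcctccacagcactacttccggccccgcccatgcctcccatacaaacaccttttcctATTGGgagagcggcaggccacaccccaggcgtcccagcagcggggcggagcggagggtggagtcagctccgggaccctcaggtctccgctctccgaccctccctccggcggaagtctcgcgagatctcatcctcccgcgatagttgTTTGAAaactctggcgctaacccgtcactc
Cdc6: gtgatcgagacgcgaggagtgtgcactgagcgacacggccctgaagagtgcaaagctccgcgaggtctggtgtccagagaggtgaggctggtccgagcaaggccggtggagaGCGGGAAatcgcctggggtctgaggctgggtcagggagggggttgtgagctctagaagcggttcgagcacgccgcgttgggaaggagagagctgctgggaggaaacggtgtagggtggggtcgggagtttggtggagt
Il2ra: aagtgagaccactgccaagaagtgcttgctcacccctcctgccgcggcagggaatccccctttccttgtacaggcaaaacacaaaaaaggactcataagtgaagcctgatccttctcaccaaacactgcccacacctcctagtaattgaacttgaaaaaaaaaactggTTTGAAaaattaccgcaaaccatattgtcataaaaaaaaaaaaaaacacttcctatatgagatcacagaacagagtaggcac
The CHR match in Ncapg began 30 bases before the start site, the CCAAT box 176 bases before it, and the E2F match in Cdc6 138 bases before it. The Cdc6 window lies inside the gene as GENCODE draws it, since its start there is further upstream than in RefSeq. The letters TTCNNNGAA, to which STAT factors such as STAT5 bind, were not found in the Il2ra window. A match is a description of letters and not a binding site.

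Over the RefSeq windows of 300 bases (250 before to 50 after the start site), both strands searched, CHR letters stood in 32 of the 44 mitosis and cytokinesis genes with a window (72.7%). They stood in 14.3% of tested genes with a window and in 20.2% of all 27025 genes with one. CCAAT stood in 31 of those 44 mitotic genes (70.5%), in 26 of 40 replication genes (65.0%) and in 17 of 20 genes of cholesterol and fatty acid synthesis (85.0%), against 43.1% of tested and 41.1% of all genes. An E2F match was spelled TTGGCGC in its first form, TTCGCGC in another, TTCCCGC in the next and TTGCCGC in the last. A match of any form stood in 26 of 40 replication genes (65.0%), 12 of 14 genes of the S phase checkpoint and recombination repair (85.7%), 8 of 16 genes of G1 and S phase control (50%) and 9 of 44 mitotic genes (20.5%), against 19.8% of tested and 10.9% of all genes. CHR letters stood in 18.5% of the genes higher in the Mki67-high pair and 16.2% of the lower ones. Of the higher genes, 127 of 426 with a window held an E2F match (29.8%), and of the lower genes 54 of 451 (11.97%). The E-box CACGTG, read by MYC and its partners, stood in 11.03% of the higher genes and 11.8% of tested ones (8.09% of all). The STAT letters stood in 7.98% and 8.37% (9.55% of all). These motifs can share a window, and the lists hold genes known from earlier work to carry them.

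Total counts were 24478463 and 26984332 in the Mki67-high pair, 24152023 and 25390340 in the Mki67-low pair, and between 20881035 and 31196428 over all 9 libraries. Within each pair the counts differed by more than sampling noise (chi-square over degrees of freedom 36.9 and 38.9), so no library was a copy of another. All 4 libraries matched male mice, with Xist, the RNA of the inactive X, at 0.148 to 1.42 CPM and the Y-linked Ddx3y at 56.3 to 84.6 CPM. Slc2a1, which encodes Glut1, stood at 36.9 and 255 CPM in the Mki67-high pair and at 35.2 and 31.9 CPM in the Mki67-low pair. The Glut1Tg library stood above all 3 WT libraries, and WT replicate 2 lay near the Mki67-low libraries. T cell identity held in all 4: summed over 10 markers (Cd3d, Cd3e, Cd3g, Cd4, Cd2, Cd5, Cd28, Lck, Zap70 and Thy1), the level was 5432 and 5220 CPM against 5327 and 5202 CPM, and no marker was called in either direction.

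A gene was called higher where the lower of the Mki67-high libraries was at least 2 times the higher of the Mki67-low libraries, and lower where the reverse held. This ratio of nearest libraries is the fold given below unless the fold of the pair means is named. Of 12809 genes with a mean of at least 1 CPM over the 4 libraries, 602 were called higher (4.7%) and 704 lower (5.5%). The counts of calls in each gene list below are to be read against these shares. Within a pair, 418 genes differed 2-fold or more between WT replicate 2 and Glut1Tg replicate 1 (3.26%), and 633 between WT replicates 4 and 5 (4.94%). The median log2 ratio of pair means was 1.68 over the higher genes and -1.92 over the lower ones, against -0.04 over all tested genes. Large gaps lay mostly among the lower genes: 60 of them were at least 10-fold apart between nearest libraries, against 2 of the higher ones. In the authors' deposited log2 table, which holds 12596 of the tested genes, 546 were called higher and 364 lower. Of these, 501 and 364 were also called on CPM. Higher genes took 4.87% and 5.74% of all counts in the Mki67-high pair, 1.502% and 1.93% in the Mki67-low pair and 1.24% to 1.92% in mouse group 1.

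**Figure D1:**
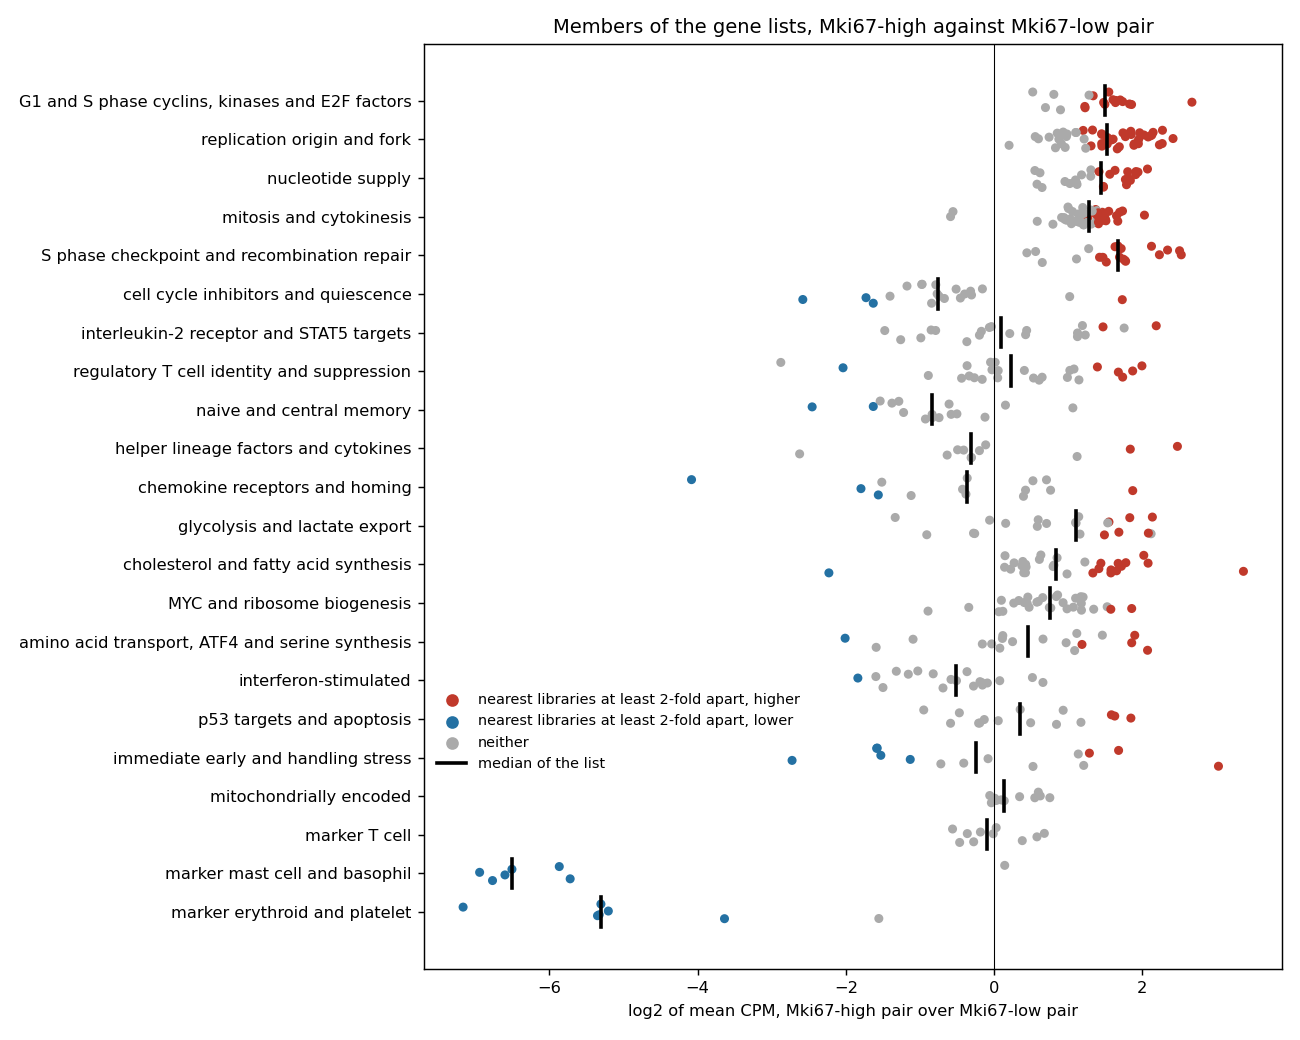
Each point is a gene of a list, placed by the log2 ratio of its mean CPM in the Mki67-high pair (WT replicate 2, Glut1Tg replicate 1) over the Mki67-low pair (WT replicates 4 and 5). Red and blue mark genes whose nearest libraries were at least 2-fold apart, bars mark list medians. Lists of the cell cycle lie to the right, with medians from 1.27 to 1.67, and mast cell and erythroid and platelet genes lie far to the left.

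Mki67 itself, on chromosome 7 (135689784-135716361, minus strand), was 2.53-fold higher by pair means but only 1.86-fold between nearest libraries, so it did not meet the call. WT replicate 5 stood 2.09-fold above WT replicate 4. In mouse group 1 it ranged from 334 to 580 CPM, around the level of WT replicate 4.

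Genes of G1 and S phase control and of DNA replication were higher in the Mki67-high pair with none lower. Of 19 cyclins, kinases and E2F factors that passed the expression filter, 14 were called higher (median log2 1.5). Ccne2, the cyclin E that drives CDK2 at the start of S phase, stood at 30.1 and 34.95 CPM against 4.35 and 5.87 CPM, a fold of 5.13. E2f8, a repressive E2F that closes the S phase wave, stood at 119 and 128 CPM against 27.3 and 42.2 CPM, a fold of 2.81. Skp2, which marks the CDK inhibitor p27 for destruction, stood at 14.8 and 16.3 CPM against 3.73 and 5.59 CPM. For all these genes the 2 Mki67-high libraries were alike and WT replicate 5 lay between them and WT replicate 4.

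Of 49 genes of replication origins and forks, all of which passed the filter, 33 were called higher and 0 lower (median log2 1.53). Cdc6 (chromosome 11, 98907801-98923940, plus strand) stood at 59.2 and 68.7 CPM against 10.3 and 13.7 CPM, the widest gap in the list at 4.32-fold. Mouse group 1 held it at 8.05 to 15.9 CPM, as low as the Mki67-low pair. Pola1, the catalytic subunit of the polymerase that starts new strands, stood at 96.4 and 94.1 CPM against 23.3 and 25.5 CPM. Dna2, a nuclease and helicase that trims Okazaki flaps, stood at 35.3 and 46.03 CPM against 7.16 and 9.69 CPM. The 6 subunits of the MCM helicase ring, Mcm2 to Mcm7, were all called higher, with log2 ratios of pair means from 1.2 (Mcm7) to 1.95 (Mcm5). The single-strand binding subunit Rpa1 had the smallest ratio, at 412 and 409 CPM against 357 and 357 CPM. The MCM genes and Rpa1 were named after their values were seen. Summed over the list, replication genes made up 6846 and 7924 CPM in the Mki67-high pair, 2540 and 3092 CPM in the Mki67-low pair and 1928 to 2943 CPM in mouse group 1.

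Genes of nucleotide supply were higher as well: 14 of 26 were called and 0 were lower (median log2 1.45). Both subunits of ribonucleotide reductase, which makes deoxynucleotides, were among the 3 with the widest gaps. Rrm2, its S phase subunit, stood at 381 and 441 CPM against 74.03 and 122 CPM, a fold of 3.13, and Rrm1 stood at 523 and 585 CPM against 118 and 170.1 CPM, a fold of 3.08. Ctps, which makes CTP, stood at 52.5 and 71.2 CPM against 15.9 and 16.9 CPM. In 25 of the 26 genes Glut1Tg replicate 1 lay above WT replicate 2, against 46.7% of all tested genes.

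Of 21 genes of the S phase checkpoint and recombination repair, 15 were called higher and 0 lower, with the largest list median of the cell cycle lists (log2 1.67). Hells, a chromatin remodeller needed for DNA methylation, stood at 90.5 and 114.5 CPM against 15.3 and 20.3 CPM, a fold of 4.46. Exo1, an exonuclease that resects DNA ends, stood at 34.03 and 46.1 CPM against 6.004 and 8.11 CPM. Chek1, the kinase that restrains entry into mitosis when forks stall, stood at 35.5 and 43.6 CPM against 6.87 and 8.74 CPM. For each of the 3, both Mki67-high libraries stood over 2-fold above all 5 libraries of mouse group 1.

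Mitosis and cytokinesis genes were higher too, but with a gradient inside the Mki67-low pair. Of 53 genes, 23 were called higher and 0 lower (median log2 1.27). WT replicate 5 lay above WT replicate 4 in 51 of the 53, against 50.7% of all tested genes. Without WT replicate 5 the count of higher genes was 49. Ncapg (chromosome 5, 45669919-45700546, plus strand) stood at 149 and 148 CPM in the Mki67-high pair and at 27.7 and 45.1 CPM in the Mki67-low pair, a fold of 3.29. Smc2, the condensin ATPase, stood at 289 and 281 CPM against 64.8 and 107 CPM. Cdk1, the kinase that drives mitosis, stood at 197 and 216 CPM against 53.4 and 76.3 CPM.

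Within the Mki67-high pair, Glut1Tg replicate 1 lay above WT replicate 2 in 19 of these 53 genes, against 46.7% of all tested genes. Genes of the list with a negative ratio were Smc4 and Pttg1, both named after their values were seen. Smc4, the partner of Smc2, stood at 825 and 653 CPM against 1174 and 995.5 CPM. Pttg1, the securin that holds back separase, stood at 16.2 and 45.7 CPM against 46.7 and 46.2 CPM, so that WT replicate 2 alone was low. The list summed to 12240 and 11560 CPM in the Mki67-high pair, 4822 CPM in WT replicate 4, 6667 CPM in WT replicate 5 and 3344 to 4677 CPM in mouse group 1.

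**Figure D2:**
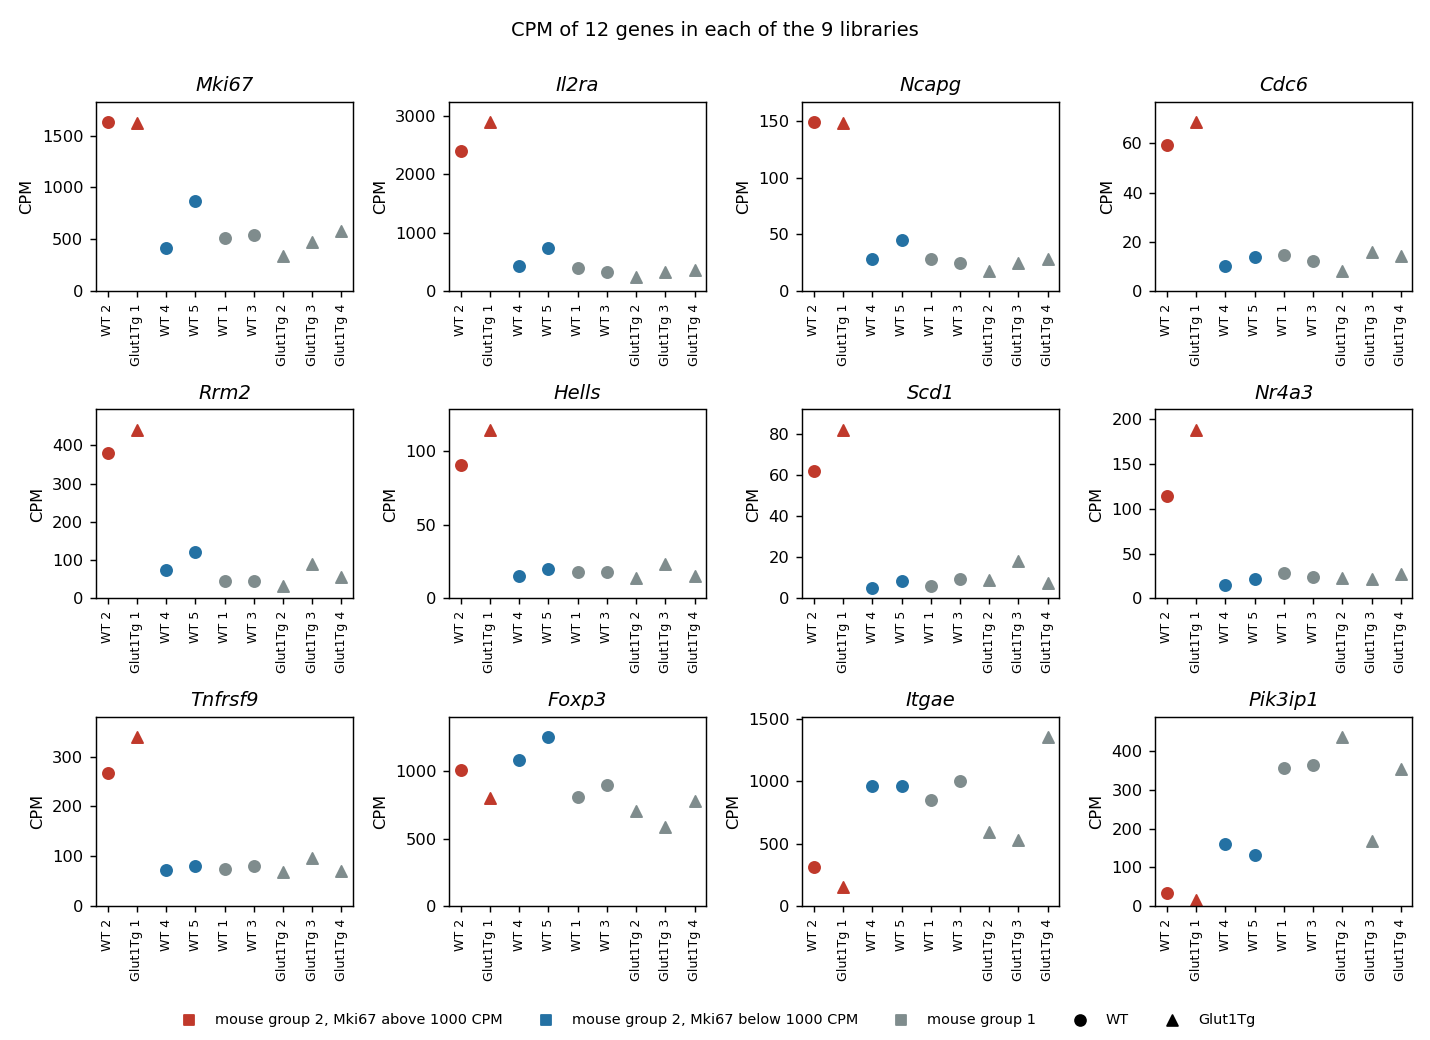
CPM (linear axes starting at 0) of 12 genes in each of the 9 libraries, coloured by pair or mouse group and shaped by genotype. Ncapg, Cdc6, Rrm2, Hells, Scd1 and Nr4a3 are high in both Mki67-high libraries and low in the other 7, Foxp3 is not, and Itgae and Pik3ip1 are low in them.

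Of 27 clustered histone genes that passed the filter, out of 64 in the table, 6 were called higher and 2 lower (median log2 1.16). Summed over all 64, the level was 95.4 and 142 CPM against 109 and 102 CPM, so the pairs overlapped. Most transcripts of these genes end without a poly(A) tail, and their levels were low in these mRNA libraries. Hist1h2bj stood at 4.66 and 8.75 CPM against 0.828 and 1.38 CPM and Hist1h2ae at 2.37 and 2.96 CPM against 0.455 and 0.788 CPM. Hist1h2ae passed the filter only through the Mki67-high pair. Hist2h2be, whose transcripts can be polyadenylated outside S phase, went the other way with 6.13 and 3.56 CPM against 15.3 and 13.6 CPM. Near-identical copies make the split of reads among these genes uncertain. Without WT replicate 2 the higher count was 16 and without WT replicate 5 it was 13.

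Of 20 cell cycle inhibitors and genes of quiescence, 18 had a negative log2 ratio of pair means, but only 3 were called lower and 1 higher (median log2 -0.76), and without WT replicate 2 the lower count was 10 (5 without WT replicate 5). Pik3ip1, an inhibitor of PI3 kinase, stood at 33.1 and 15.6 CPM in the Mki67-high pair and 159.7 and 132 CPM in the Mki67-low pair, 3.98-fold lower. Txnip, which limits glucose uptake, stood at 207 and 156 CPM against 655.5 and 549 CPM, and Ypel3, a growth-suppressing gene, at 162 and 123 CPM against 475 and 408 CPM. In mouse group 1 Pik3ip1 (169 to 435 CPM) and Txnip (818 to 1457 CPM) stood above the Mki67-low pair, and Ypel3 (388 to 515 CPM) overlapped it.

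Cdkn1a, which encodes the CDK inhibitor p21, was the gene of that list called higher: it stood at 142 and 253 CPM against 50.3 and 68.7 CPM, a fold of 2.06. Of 15 genes of p53 targets and apoptosis, 3 were called higher and 0 lower (median log2 0.35), with 6 higher without WT replicate 2. Perp, a membrane protein of p53-driven cell death, stood at 14.1 and 22.8 CPM against 4.84 and 5.396 CPM. Fasl, the death ligand, stood at 3.35 and 4.63 CPM against 1.28 and 1.38 CPM, and Phlda3, an inhibitor of AKT, at 21.98 and 39.1 CPM against 9.896 and 9.85 CPM. In mouse group 1 Fasl (2.07 to 5.699 CPM) and Phlda3 (11.4 to 26.3 CPM) overlapped the Mki67-high pair, Phlda3 through Glut1Tg replicate 3 alone. In all 3 genes the Mki67-low pair lay below every library of mouse group 1, as it did in 1612 of all 12809 tested genes. For each of these, Glut1Tg replicate 1 was the higher of its pair.

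Il2ra stood out among interleukin-2 genes. It lies on chromosome 2 (11642807-11693193, plus strand) and stood at 2402 and 2900 CPM in the Mki67-high pair, 419.7 and 743 CPM in the Mki67-low pair and 232 to 389 CPM in mouse group 1. The nearest libraries were 3.23-fold apart, and both Mki67-low libraries lay above the whole range of mouse group 1. The Mki67-low pair did so in 3324 of all 12809 tested genes. Of 20 genes of the interleukin-2 receptor and STAT5 targets that passed the filter (of 21 listed), 2 were called higher and 0 lower (median log2 0.09). The shares over all tested genes were 4.7% and 5.5%. Besides Il2ra, the gene called higher was Bcl2l1, the survival gene of BCL-XL, with 71.3 and 104 CPM against 30.1 and 33.3 CPM. Mouse group 1 held Bcl2l1 at 46.5 to 103 CPM, above the Mki67-low pair, and only Glut1Tg replicate 3 exceeded 62.6 CPM. The beta and gamma chains of the receptor, named after their values were seen, were not called: Il2rb stood at 876 and 807 CPM against 516 and 725 CPM and Il2rg at 379 and 357 CPM against 382 and 372 CPM. Without WT replicate 5 the higher count was 7, and without WT replicate 2 it was 4 with 3 lower.

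Regulatory T cell genes lay on both sides. Foxp3 (X chromosome, 7573644-7595245, plus strand) stood at 1009 and 805 CPM against 1083 and 1252 CPM, a log2 ratio of pair means of -0.36, and at 586 to 897 CPM in mouse group 1. Of 26 genes that passed the filter (of 28 listed), 5 were called higher and 1 lower (median log2 0.23). Tnfrsf9, the costimulatory receptor 4-1BB, stood at 266 and 338 CPM against 71.9 and 79.6 CPM, a fold of 3.34. Ccr8, a chemokine receptor of activated regulatory T cells, stood at 174 and 186 CPM against 45.5 and 62.7 CPM, and the inhibitory receptor Tigit at 33.4 and 56.1 CPM against 10.6 and 13.9 CPM. The gene called lower was Itgae, the integrin chain CD103 that binds E-cadherin on epithelium, at 311 and 157 CPM against 961 and 962 CPM, 3.09-fold lower. WT replicates 4 and 5 were nearly equal in Itgae, and WT replicate 2 lay between them and Glut1Tg replicate 1. Without WT replicate 5, 8 were called higher and 3 lower.

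Genes of naive and central memory T cells tended to lower levels: of 16, 2 were called lower and 0 higher (median log2 -0.83), with 1 lower under TMM or DESeq2 size factors, 8 without WT replicate 2 and 5 without WT replicate 5. Among all tested genes 5.5% were lower and 4.7% higher. Il7r, the interleukin-7 receptor of resting T cells, stood at 112 and 55.96 CPM against 295 and 224 CPM, just past the threshold at 2.01-fold. Ly6c1, a surface protein with close copies in the genome, stood at 1.35 and 0.593 CPM against 5.797 and 4.84 CPM. WT replicate 2 kept higher values than Glut1Tg replicate 1 in 14 of the 16. For all tested genes, Glut1Tg replicate 1 was the higher in 46.7%.

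Chemokine receptors and homing genes went both ways, with 1 of 14 called higher and 3 lower (median log2 -0.37; 16 were listed; without WT replicate 4, 5 were lower). Among all tested genes 4.7% were higher and 5.5% lower. Ccr4, which responds to the chemokines of skin and of dendritic cells, stood at 94.1 and 122 CPM against 23.4 and 35.6 CPM and at 8.88 to 13.8 CPM in mouse group 1, so the Mki67-low pair lay between. Cd69, which keeps T cells in tissue, stood at 37.8 and 42.2 CPM against 122 and 155.5 CPM, and the follicle receptor Cxcr5 at 3.595 and 2.298 CPM against 9.61 and 7.798 CPM. The third lower gene was Ccr2, at 0.327 and 0.148 CPM against 6.83 and 1.22 CPM, where WT replicate 4 stood above the rest of the 4 libraries.

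Of 11 helper lineage factors and cytokines that passed the filter (of 19 listed), 2 were called higher and 0 lower (median log2 -0.31; 3 higher without WT replicate 2). The shares over all tested genes were 4.7% and 5.5%. Tbx21, the Th1 factor T-bet, stood at 5.92 and 16.8 CPM against 1.41 and 2.68 CPM, and the cytokine Tnf at 46.5 and 52.8 CPM against 7.54 and 20.2 CPM. In both, WT replicate 5 lay above WT replicate 4.

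Genes of glucose use were higher in part. Of 21 glycolysis genes 6 were called higher and 0 lower (median log2 1.11), with 12 called higher without WT replicate 2. Slc16a3, the lactate exporter MCT4, stood at 78.3 and 114 CPM against 20.1 and 23.5 CPM, a fold of 3.33, and at 12.2 to 18.5 CPM in mouse group 1. Tpi1, triose phosphate isomerase, stood at 234 and 351 CPM against 84.5 and 79.95 CPM. Hk2, the inducible hexokinase, stood at 13.7 and 22.4 CPM against 5.09 and 3.43 CPM. In mouse group 1 Glut1Tg replicate 3 alone, at 48.9 CPM, stood above the Mki67-high pair. The rest of that group, at 8.24 to 10.8 CPM, lay between the pairs. Glut1Tg replicate 1 lay above WT replicate 2 in 17 of the 21 genes, against 46.7% of all tested genes.

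Of 30 genes of cholesterol and fatty acid synthesis, 12 were called higher and 1 lower (median log2 0.83). Leaving out any of the 4 libraries gave 12 or 13 higher, but under this rule that can only add calls. Scd1, the desaturase that makes oleate, stood at 61.6 and 81.9 CPM against 5.30 and 8.62 CPM, a fold of 7.15, and at 5.95 to 18.2 CPM in mouse group 1. Cyp51, a sterol demethylase, stood at 138 and 190.4 CPM against 41.03 and 36.8 CPM, and Idi1, of the mevalonate pathway, at 102 and 135 CPM against 34.6 and 23.8 CPM. The gene called lower was Fads2, which desaturates polyunsaturated fatty acids, at 1.96 and 2.15 CPM against 14.6 and 4.65 CPM, with WT replicate 4 well above WT replicate 5. Mouse group 1 held Fads2 at 1.98 to 22.7 CPM, which overlapped the Mki67-high pair and was highest in Glut1Tg replicate 3.

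Of 18 genes of amino acid transport, ATF4 and serine synthesis that passed the filter (of 21 listed), 4 were called higher and 1 lower (median log2 0.46; 7 higher without WT replicate 2 and 3 lower without WT replicate 5). The first enzymes of serine synthesis were both called: Phgdh stood at 254 and 356 CPM against 65.5 and 98.03 CPM and Psat1 at 103 and 139 CPM against 27.7 and 29.9 CPM. Slc7a1, which imports arginine and lysine, stood at 120.3 and 158 CPM against 33.1 and 43.8 CPM, and mouse group 1, at 83.2 to 122 CPM, lay above the Mki67-low pair and reached WT replicate 2. Slc43a1, an exchanger of large neutral amino acids, was lower, at 4.17 and 1.89 CPM against 13.2 and 11.2 CPM.

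Ribosome biogenesis genes were graded within the Mki67-high pair. Of 30 genes of MYC and ribosome biogenesis, 2 were called higher and 0 lower (median log2 0.76), against 4.7% and 5.5% of all tested genes. Glut1Tg replicate 1 lay above WT replicate 2 in 28 of the 30, against 46.7% of all tested genes. Without WT replicate 2 the higher count was 13 (5 without WT replicate 4). Utp20, of the small subunit processome, stood at 46.3 and 67.1 CPM against 14.3 and 17.01 CPM, and Bysl, of the same pathway, at 33.2 and 53.2 CPM against 14.6 and 14.4 CPM. Myc, named after its values were seen, stood at 173 and 238 CPM against 123 and 261 CPM, with WT replicate 5 above both Mki67-high libraries.

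Immediate early genes split in opposite directions. Of 14 that passed the filter (of 17 listed), 3 were called higher and 5 lower (median log2 -0.25; 5 higher without WT replicate 2). Fosb, a partner of Jun in AP-1, stood at 7.31 and 7.19 CPM against 50.4 and 45.5 CPM, 6.22-fold lower. Jun stood at 188 and 251 CPM against 611 and 704 CPM, and Dusp1, a phosphatase of stress kinases, at 22.8 and 26.8 CPM against 73.2 and 74.7 CPM.

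In 4 of those 5 lower genes the Mki67-low pair stood above every library of mouse group 1, as it did in 3324 of all 12809 tested genes. Mouse group 1 held Jun at 134 to 336 CPM and Fosb at 13.2 to 36.7 CPM. The Mki67-high pair overlapped mouse group 1 in Jun and lay below it in Fosb. The genes called higher were the 3 orphan nuclear receptors of the list. Nr4a3, which is induced by T cell receptor signals, stood at 115 and 188 CPM against 14.9 and 22.1 CPM, a fold of 5.18, and at 21.3 to 28.7 CPM in mouse group 1. The list was chosen to show handling stress as well as signalling, and the part of either was not tested.

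Interferon-stimulated genes gave 1 lower and 0 higher of 19 that passed the filter (of 22 listed; median log2 -0.51). This compares with 5.5% lower and 4.7% higher over all tested genes. When WT replicate 2 or WT replicate 5 was left out, 5 were lower. Gbp9, an interferon-induced GTPase, stood at 19.7 and 11.9 CPM against 57.5 and 55.3 CPM, and Igtp, of the same response, at 607 and 688 CPM against 777 and 667 CPM. Of 11 mitochondrially encoded genes none was called. For example, mt-Co1, of cytochrome oxidase, stood at 8956 and 6799 CPM against 9299 and 7099 CPM.

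**Figure D3:**
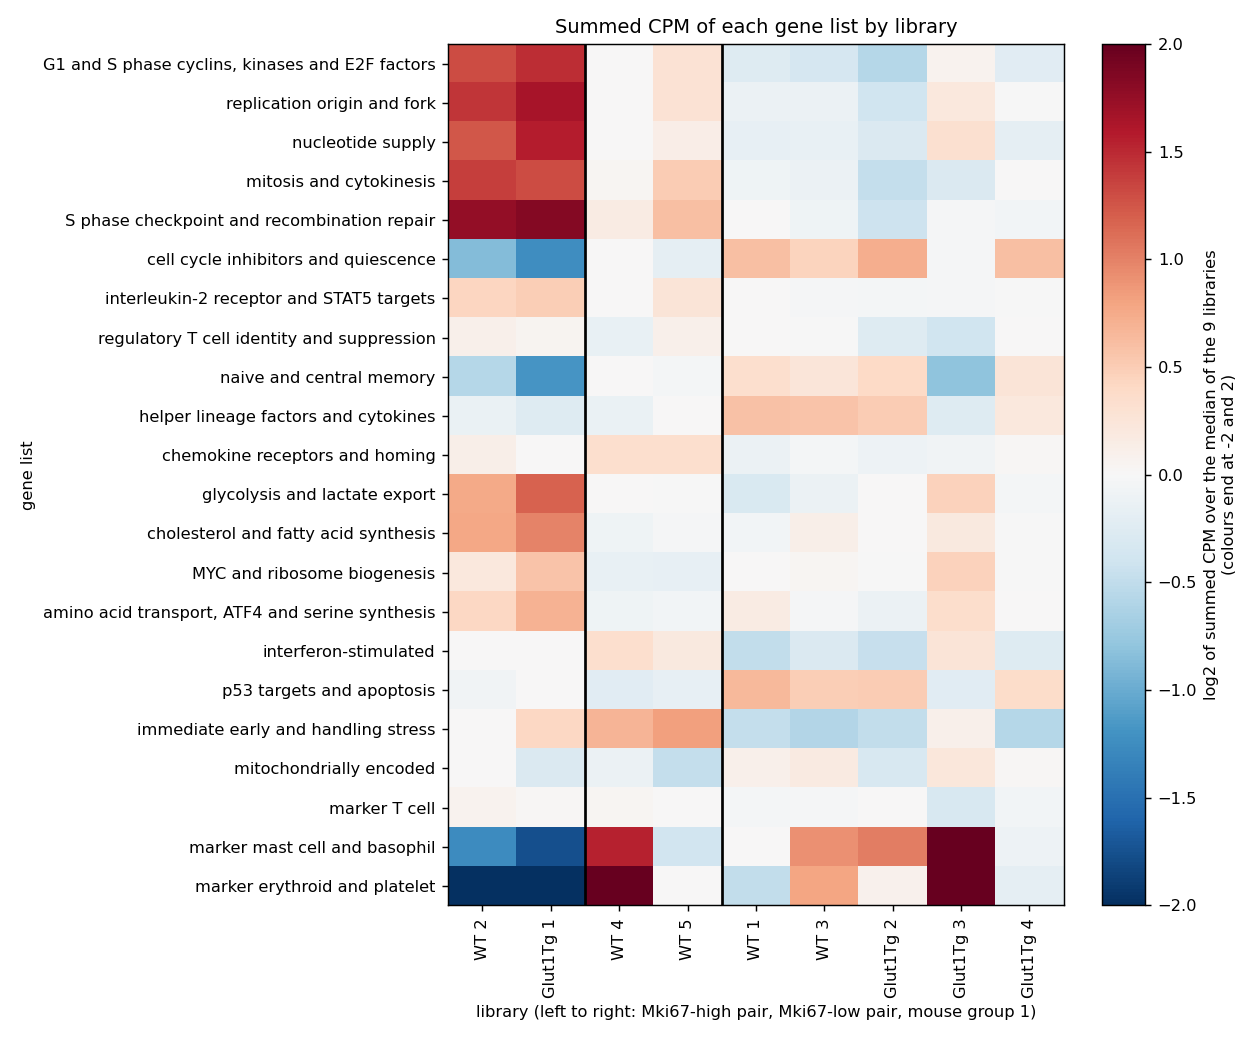
Colours show the log2 of each list's summed CPM over its median in the 9 libraries, with colours ending at -2 and 2. The columns are the libraries and black lines part the Mki67-high pair, the Mki67-low pair and mouse group 1. Cell cycle lists are highest in the first 2 columns, WT 5 is above WT 4 in them, and mast cell and platelet lists are lowest in the first 2 columns.

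The widest gaps of all belonged to genes of other blood cells, which were nearly absent from the Mki67-high pair. Of 8 mast cell and basophil markers 7 passed the filter and 6 were called lower (median log2 -6.51). Cpa3, the mast cell carboxypeptidase, stood at 2.49 and 3.48 CPM in the Mki67-high pair and 554 and 98.3 CPM in the Mki67-low pair, with 111 to 1575 CPM in mouse group 1. Fcer1a, the IgE receptor chain, stood at 0.408 and 0.445 CPM against 86.99 and 17.96 CPM, and Ms4a2, the receptor's beta chain, at 0.204 and 0.222 CPM against 33.5 and 7.88 CPM. WT replicate 4 was the higher of the Mki67-low pair in each of them, at more than 4 times WT replicate 5.

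The exception was Kit, the stem cell factor receptor, with 125 and 85.1 CPM against 104 and 85.7 CPM and 106 to 148 CPM in mouse group 1, named after its values were seen. Summed, the 8 markers made up 128.6 and 90.7 CPM, almost all of it Kit, against 898 and 235 CPM, and 287 to 2375 CPM in mouse group 1. Of 10 erythroid and platelet markers 7 passed and 6 were called lower (median log2 -5.31). The list summed to 5.64 and 4.82 CPM against 306.7 and 73.4 CPM, and to 52.2 to 1007 CPM in mouse group 1. Pf4, platelet factor 4, stood at 0.327 and 0.482 CPM against 100.2 and 15.99 CPM, and Itga2b, the platelet integrin chain that mast cell precursors also carry, at 3.02 and 2.74 CPM against 164 and 48.5 CPM. Haemoglobin genes such as Hbb-bs (0.163 and 0.0741 CPM against 7.701 and 2.13 CPM) have near-identical copies, so their counts are uncertain.

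Markers of further cell types were low throughout. The 10 myeloid markers summed to 12.6 and 6.45 CPM against 36.4 and 28.6 CPM, and 4 passed the filter with 2 called lower (4 without WT replicate 2). Lyz2, the lysozyme of myeloid cells, stood at 0.531 and 0.408 CPM against 2.81 and 1.18 CPM, and Fcgr3, a low-affinity IgG receptor, at 0.9396 and 0.408 CPM against 12.1 and 4.17 CPM. In mouse group 1, Glut1Tg replicate 3 alone held Lyz2 at 194.8 CPM.

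The 7 NK cell markers summed to 3.19 and 2.45 CPM against 9.23 and 5.04 CPM, the 6 dendritic cell markers to 5.39 and 6.97 CPM against 7.91 and 8.04 CPM, the 6 B cell markers to 5.47 and 4.67 CPM against 8.03 and 6.85 CPM, and the 2 CD8 markers to 8.95 and 6.93 CPM against 10.1 and 9.53 CPM. The signalling adaptor Tyrobp and the integrin Itgax were called lower, the latter at 0.123 and 0.0371 CPM against 5.09 and 4.57 CPM. Of the 2 dendritic cell markers that passed the filter, Itgax was one and Zbtb46 the other. Zbtb46 went the other way without being called, at 4.33 and 5.89 CPM against 1.905 and 2.40 CPM. Of the markers reported here, Ncr1, Klra4, Klra8, Ly86 and Clec9a had a count of 0 in both Mki67-high libraries, and Klra4, Klra8 and Siglech in both Mki67-low ones. In these bulk libraries fewer cells of a type and less RNA per cell cannot be told apart. Apart from Kit and Zbtb46, the markers of these other cell types that passed the filter had lower pair means in the Mki67-high pair. Their part in the 704 lower calls was not tested. The filter used the mean of these same 4 libraries. Tyrobp, Itgax, Fcer1a, Ms4a2 and Pf4, for example, were below 1 CPM in both Mki67-high libraries. They passed only through the Mki67-low pair, so for such markers the filter itself fixed the lower direction.

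**Figure D4:**
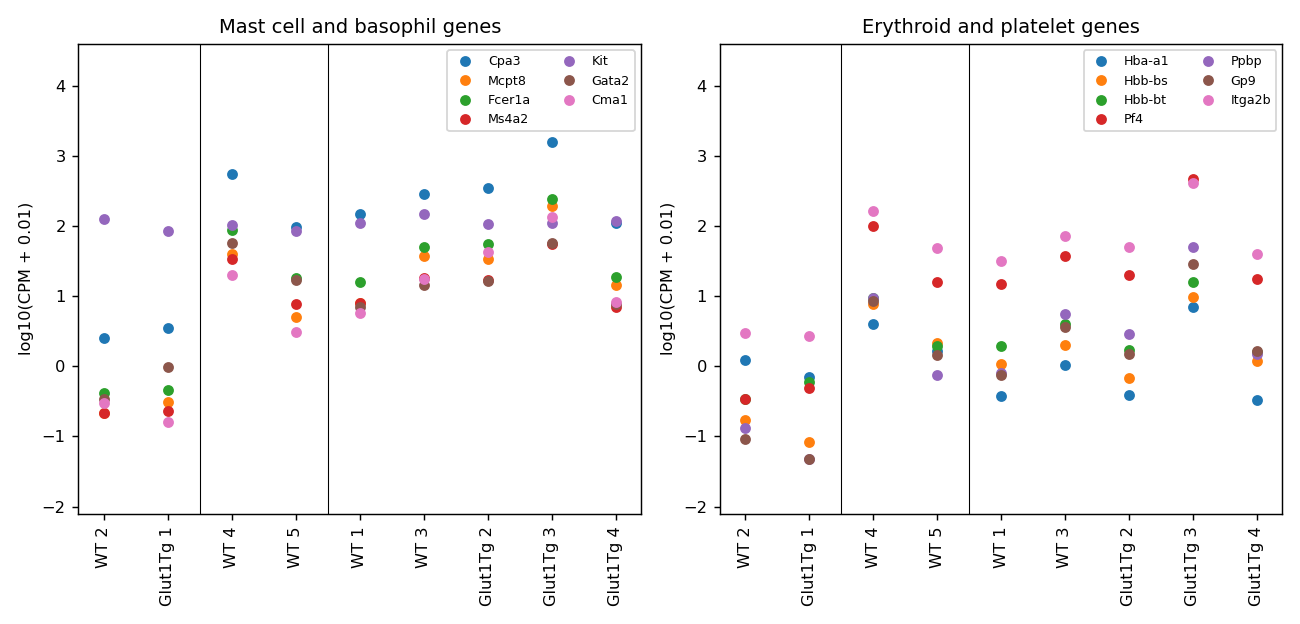
Points show log10 of CPM plus 0.01 for 7 mast cell and basophil genes (left) and 7 erythroid and platelet genes (right) in the 9 libraries, with lines between the Mki67-high pair, the Mki67-low pair and mouse group 1. All but Kit and Hba-a1 are at least 2-fold lower in the Mki67-high pair, and WT 4 lies above WT 5 in every gene shown.

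Outside the lists, the lower genes with the widest gaps included genes known from mast cells and platelets. The related proteases Mcpt2 and Mcpt1, of mucosal mast cells, stood at 6.13 and 14.6 CPM against 879 and 302.5 CPM and at 3.43 and 13.97 CPM against 716 and 244 CPM. Csf2rb2, a receptor chain for interleukin-3, stood at 1.35 and 2.19 CPM against 176 and 42.3 CPM, and Alox5, which starts leukotriene synthesis, at 1.23 and 1.19 CPM against 122 and 37.02 CPM.

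Tal1, a blood stem cell and megakaryocyte factor, stood at 0.163 and 0.148 CPM against 22.6 and 5.55 CPM, and the granule membrane protein Cd63 at 1.84 and 1.71 CPM against 138.5 and 37.9 CPM. Tbxas1, which makes thromboxane, Rab38, of lysosome-related organelles, the sphingosine phosphate exporter Spns2, Tnfaip2 and the ATP-gated channel P2rx1 followed, with at most 0.371 CPM in the Mki67-high pair. WT replicate 4 lay above WT replicate 5 in every one of these genes.

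Of the 12 higher genes with the widest gaps outside the lists, Pcx, pyruvate carboxylase, which feeds the citric acid cycle, had the highest pair mean, at 40.3 and 63.2 CPM against 5.22 and 6.07 CPM and 2.81 to 5.37 CPM in mouse group 1. Abi3bp, a matrix-binding protein, stood at 23.4 and 45.7 CPM against 0.952 and 4.06 CPM, and Dnah7a, an axonemal dynein gene, at 27.3 and 36.1 CPM against 0.497 and 3.07 CPM. Ccl4, an inflammatory chemokine, stood at 3.47 and 16.4 CPM against 0.662 and 0.551 CPM, so Glut1Tg replicate 1 stood well above WT replicate 2.

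Galnt3, which starts O-linked glycans, stood at 7.64 and 12.1 CPM against 1.24 and 1.103 CPM, and Gatm, of creatine synthesis, at 6.005 and 8.01 CPM against 0.994 and 0.906 CPM. Lamb1, a laminin chain, stood at 4.41 and 9.302 CPM against 0.621 and 0.788 CPM. Zcchc12, Pcp4, Ltf, Arfgef3 and Loxl4 were the others, with 3.80 to 8.17 CPM in the Mki67-high pair and at most 0.906 CPM in the Mki67-low pair. Of these 12 genes, Ltf and Ccl4 were not 2-fold above every library of mouse group 1.

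The higher set also set the Mki67-high libraries apart from mouse group 1, which the split did not use. Of the 602 higher genes, 387 (64.3%) stood at least 2-fold above all 5 libraries of mouse group 1 in both Mki67-high libraries, against 811 of all tested genes (6.33%). Of the 704 lower genes, 306 (43.5%) stood at least 2-fold below all of them, against 522 of all tested (4.08%). The Mki67-high libraries are the same in both contrasts, so these shares are not independent of the calls. The Mki67-low pair stood above all of mouse group 1 in 178 of the 704 lower and 107 of the 602 higher genes, against 3324 of all 12809 tested genes.

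Both pairs were graded inside. Glut1Tg replicate 1 lay above WT replicate 2 in 490 of the higher genes (81.4%), against 46.7% of all tested, and WT replicate 5 above WT replicate 4 in 485 (80.6%), against 50.7% of all tested. Among the lower genes WT replicate 4 lay above WT replicate 5 in 507 (72.0%), against 49.2% of all tested. The highest of all 9 libraries was Glut1Tg replicate 1 in 474 of the higher genes (78.7%, against 22.5% of all tested). Among the lower genes it was Glut1Tg replicate 3 of mouse group 1 in 236 (33.5%, against 16.9% of all tested) and WT replicate 4 in 175 (24.9%, against 11.6%). Within the Mki67-high pair, genotype and library cannot be told apart, as it holds 1 library of each genotype. With Glut1Tg replicate 1 left out, so that only WT libraries were compared, 668 genes were called higher and 817 lower. Leaving out a library can only add calls under this rule, so these counts do not check the calls against genotype.

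Whether genes of the split differ with genotype was asked in mouse group 1, whose 5 libraries had no part in it. With edgeR's quasi-likelihood test, 3 Glut1Tg against 2 WT libraries, 0 of 15124 genes passed an adjusted p of 0.05 (0% called), 162 were higher and 132 lower with p under 0.05 before adjustment, and DESeq2 called 7 higher and 4 lower. Slc2a1 had the lowest adjusted p in edgeR (log2 fold change 2.89, edgeR adjusted p = 0.516; the values were 477, 263 and 438 CPM in Glut1Tg and 52.0 and 59.7 CPM in WT). Of the 578 higher genes tested there, 0 passed and 13 had p under 0.05 before adjustment, and their median log2 fold change was 0.09 (lowest edgeR adjusted p 0.917). Of the 703 lower genes tested, 0 passed and 28 had p under 0.05 before adjustment, and their median was 0.13 (lowest edgeR adjusted p 0.675). The median over all tested genes was 0.00. Gbp9, called lower in the split, was lower in Glut1Tg with DESeq2 (log2 fold change -1.23, DESeq2 adjusted p = 1.56e-06). With Glut1Tg replicate 3 left out, edgeR called Gbp9 lower too (log2 fold change -1.24, edgeR adjusted p = 0.0274). A p that misses the threshold does not show that the genotypes are alike. Glut1Tg replicates 2, 3 and 4 did not share a sex by Xist and Y-linked genes, and without Glut1Tg replicate 3 edgeR called 4 higher and 8 lower, among them Slc2a1 (edgeR adjusted p = 0.000127), Xist and Y-linked genes. There Xist was higher in Glut1Tg replicates 2 and 4 than in WT replicates 1 and 3 (log2 fold change 8.87). The Y-linked Eif2s3y was lower (-10.68). Genotype and sex therefore cannot be fully told apart in mouse group 1. Over all alternatives the adjusted p of Slc2a1 ranged from 2.78e-16 with DESeq2 to 0.999 in edgeR with either WT library left out.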

How the data were processed

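Total RNA of induced regulatory T cells was sequenced as stranded mRNA libraries, per the labels' protocols. The tools bcl2fastq, TopHat2, featureCounts and DESeq2 and the build mm10 are named per the submitters' processing notes. Their roles, versions and settings for strand are not stated, so genes that overlap on opposite strands are uncertain. The deposited table of raw counts (28111 genes, whole-number counts per gene, not normalized) was the base of all values, and the authors' deposited log2 table (13700 genes) served for 1 alternative.

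Counts were scaled to CPM by column total. The contrast of the pairs has no test. Values under 3 counts in the lower pair were set to 3 counts. The genotype test in mouse group 1 used edgeR 4.0.16 in R 4.3.3 (filterByExpr, TMM, quasi-likelihood, Benjamini-Hochberg), checked on simulated counts, with DESeq2 1.42.0 as an alternative. Other values came from Python 3.11.15 with pandas 2.3.3. Columns were matched to samples by genotype and number. Coordinates are from GENCODE on mm10. Totals of 20881035 to 31196428 counts limit precision mainly for genes near 1 CPM.

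The members, the gene lists and the tests were chosen with earlier results of these data known. Named genes were Mki67, Il2ra, Slc2a1 and Foxp3, up to 4 of each list with the widest gap between nearest libraries (or, where fewer than 2 were called, the highest mean CPM), and up to 12 called genes in each direction outside the lists with at least 5 CPM in the higher pair and no predicted symbol. A few genes and markers are not reported here. Other scalings, filters, folds, a call on pair means and leaving out each library were tried.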

Additional observations from a re-analysis of the deposited data

How the results depend on the processing

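Rescaling gave 654 genes higher and 679 lower with TMM, and 647 and 684 with DESeq2 size factors. These calls held all 602 higher genes, and all 679 and 684 were among the 704 lower ones. By construction, stricter or looser calls moved the counts more. A mean of at least 5 CPM left 457 higher and 332 lower, no filter gave 767 and 1112, a fold of 1.5 gave 1472 and 1606, a fold of 3 gave 141 and 280, and a 2-fold difference of pair means gave 1156 and 1323. The deposited log2 table, which holds 12596 of the 12809 tested genes, gave 546 and 364. It kept 501 of the 602 higher calls and 364 of the 704 lower calls, and the cause of the difference was not tested. With each library left out in turn, which can only add calls, the higher count ranged from 668 to 1103 and the lower from 817 to 1378. WT replicate 5 (1103 and 1064 without it) and WT replicate 2 (1058 and 1378 without it) moved both counts by over 1.5 times, and the cause was not tested. Over 630 values of 105 named genes under other scalings or with a library left out, 0 of the called genes changed sign, and mt-Co1, which was not called, went from -0.06 to 0.13 without Glut1Tg replicate 1 and 0.15 without WT replicate 4. By size, 558 values stayed within the spread of the replicates and 72 moved beyond it. The genotype test in mouse group 1 called 0 genes in each direction. It called 1 higher and 2 lower without a filter on low counts and 7 higher and 4 lower with DESeq2, and the cause was not tested. With a library left out it called 0 to 4 higher and 0 to 8 lower, and only leaving out Glut1Tg replicate 3 gave any call (4 and 8). No paired analysis was possible because the contrast of the pairs comes from no test and the genotypes of mouse group 1 share only the replicate number 3.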
